A study of Mus musculus with 4 samples.

Results

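Rab GTPases are the small GTP-binding proteins that give membranes of the cell their identity and steer vesicle traffic between them. The Rab genes described here are the protein-coding genes of the deposited tables whose symbol is Rab followed by a number, with at most a letter and a further digit, a rule that uses no measured value. It gave 51 genes of 17995 listed for mouse platelets. Of these, 48 are listed in both tables, Rab34 only in the table of the library labelled cKO and WT, and Rab38 and Rab3b only in the table of Old and Young. Rab27a, Rab27b, Rab32 and Rab38, the Rabs tied to secretory and lysosome-related granules, were set beside the 47 others. Platelet RNA was sequenced in 4 libraries with 1 library per group, each a pool of platelets from 7 male mice. WT and its littermates labelled as platelet-specific HuR conditional knockouts (cKO) were 3 months old, the Young group was wild type at 3 months, and the Old group was wild type at 24 months. HuR is the RNA-binding protein encoded by Elavl1, and the sources used here name neither the Cre driver nor the deleted part of the gene. The study asked how platelet HuR and age bear on platelet RNA.

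A Rab protein cycles between a GDP-bound form, held in the cytosol by carrier proteins, and a GTP-bound form that sits on a membrane through a prenyl anchor and recruits effectors. Exchange factors load GTP and GTPase-activating proteins end the signal, so each compartment carries its own Rabs: Rab1 and Rab2 between ER and Golgi, Rab6 at the Golgi, Rab5 on early endosomes, Rab7 on late endosomes and Rab11 on recycling endosomes. In platelets, which inherit both RNA and organelles from the megakaryocyte, Rab27b and Rab27a serve the formation and secretion of dense granules. Rab32 and Rab38 deliver cargo to lysosome-related organelles such as platelet dense granules and melanosomes.

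The recovered read totals ran from 17702341 in the library labelled cKO to 18472149 in Old. No difference here has a replicate check, and the 95% intervals given for ratios hold counting error alone. Below, "rose" and "fell" are kept for genes with 100 reads or more in the larger library and an interval lying wholly beyond 2-fold. Elavl1 had 1481 reads in the library labelled cKO against 876 in WT, 621 in Young and 527 in Old, so this count does not bear out the label, and every direction below is that of the library labelled cKO. All 15 platelet markers had reads in every library, with summed levels of 53124.1 to 65820.6 RPM (reads scaled to a common library total). Markers of other blood cells were also present: summed erythroid markers ran from 8340.8 RPM in WT to 21655.8 RPM in Young. Summed neutrophil markers ran from 32.0 RPM in Young to 838.8 RPM in Old, and summed B cell markers from 142.6 RPM in Old to 646.1 RPM in WT. Summed monocyte and macrophage markers, mostly Lyz2, ran from 2323.4 RPM in the library labelled cKO to 3515.7 RPM in Young. Of 4 such markers with 100 reads, 3 rose in Old against Young, where 4.26% of all genes did. Fewer cells of a type and less RNA per cell cannot be told apart in such bulk libraries.

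Rab genes took 76219 reads in WT, 57126 for the label cKO, 67967 in Young and 76655 in Old, which is 0.424%, 0.323%, 0.375% and 0.415% of all reads. A small group of them carried most of this signal. The 5 highest Rabs by reads took 50.2% to 58.5% of the Rab reads of a library, 28 to 30 Rabs reached 100 reads in a library, and 0 to 2 listed Rabs per library had 0 reads. The median Rab stood at 4.05 to 4.55 RPKM (RPM per kilobase of the listed gene length), above the median of 0.789 to 0.908 RPKM over all genes with reads.

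Levels can be compared between genes only per length, and on the RPKM scale 8 Rabs stood at the top of the mean over the 4 libraries. Rab11a, which returns membrane from recycling endosomes to the surface, was at 219 RPKM in WT, 130 where labelled cKO, 148 in Young and 121 in Old. Rab6a, a Golgi Rab, was at 128, 57.4, 96.8 and 142 RPKM in the same order of libraries. Rab5c, which acts in fusion at early endosomes, was at 81.3, 99.4, 106 and 137 RPKM. Rab11a and Rab6a exchanged the first place: Rab11a was highest in WT, in the library labelled cKO and in Young, and Rab6a was highest in Old. Rab10, an exocytic Rab, was at 115, 68.2, 93.3 and 87.5 RPKM, and Rab7, the late endosomal Rab, at 89.1, 59.1, 76.6 and 90.1 RPKM. Rab11b was the steadiest of the 8, at 60.2, 65.2, 60.1 and 61.1 RPKM. Rab1b, which acts in transport from ER to Golgi, was at 45.4, 50.7, 62.4 and 81.5 RPKM, and the granule gene Rab27b at 54.1, 26.5, 44.7 and 58.6 RPKM. Rab27b was eighth by this mean although by reads it was among the most abundant, because its listed length of 10679 bases is the longest of the 8.

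**Figure D1:**
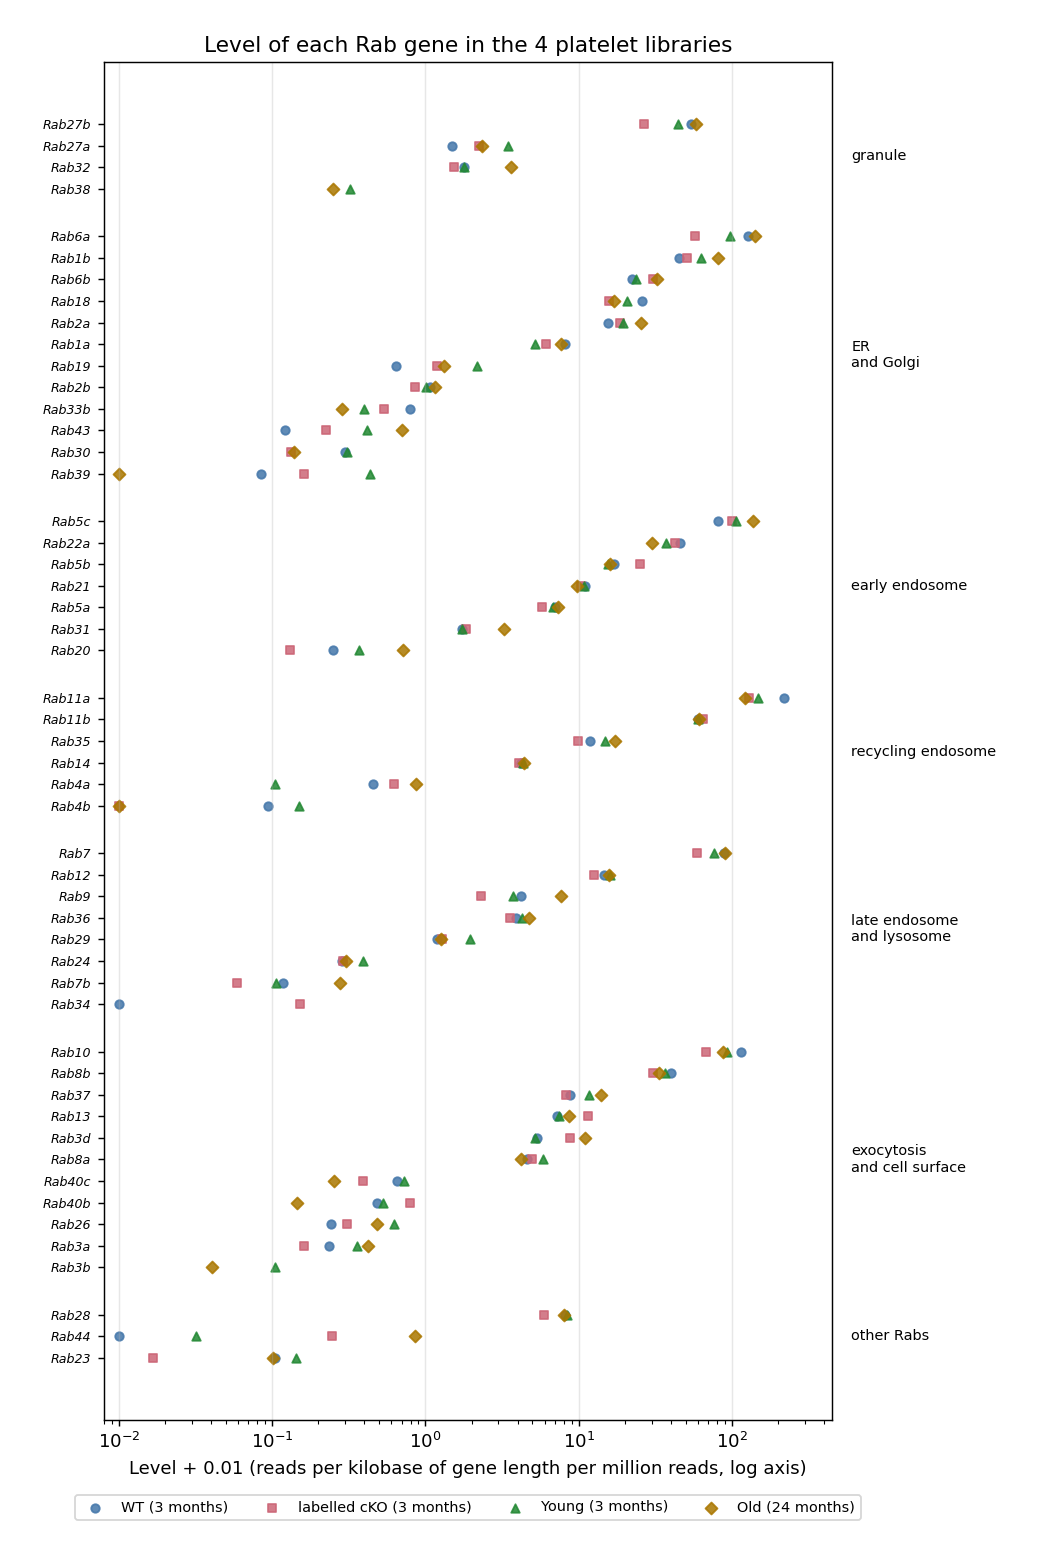
Level of each Rab gene (RPKM, reads per kilobase at a common library total, on a log axis after adding a small constant) in the 4 libraries, with 1 point per library and genes grouped by role and ordered by their mean; genes listed at 0 reads sit at the left edge. Rab11a, Rab6a, Rab5c and Rab10 lead with means of 154, 106, 106 and 90.9 RPKM, and Rab27b is the only granule Rab among the 8 highest.

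Below these, a middle group of broadly used Rabs held between about the level of the median and that of Rab27b. Rab22a, an early endosomal Rab, was at 30.0 to 45.6 RPKM and Rab8b, which serves exocytosis, at 30.7 to 40.1 RPKM. The Golgi paralogue Rab6b was at 22.3 to 32.5 RPKM. The lower end held genes near the counting limit: Rab4b had 3 and 5 reads in WT and Young and 0 in both other libraries, and Rab34 had 0 reads in WT and 6 in the library labelled cKO. For such genes a count of 0 allows up to 3 reads. The interval of Rab34 in the library labelled cKO over WT has a lower bound of 1.16, and a difference in Rab4b was not detectable at this depth.

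Among the granule Rabs, Rab27b held nearly all of the reads. Its reads numbered 10394 (WT), 5018 (labelled cKO), 8661 (Young) and 11567 (Old). Rab27a, its paralogue in granule docking, had 103, 154, 242 and 167 reads, and Rab32 had 75, 63, 75 and 155. Rab38 had 9 reads in Young and 7 in Old and is not listed for the other pair. Granule Rabs together took 13.9%, 9.16%, 13.2% and 15.5% of the Rab reads, lowest in the library labelled cKO and highest in Old.

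In the library labelled cKO against WT, 2 Rabs fell and none rose of the 29 that reached 100 reads. The background was 1.71% of genes lower and 2.52% higher, 4.22% in either direction, over the 6273 genes with that many reads. Rab6a had 3788 reads in the library labelled cKO against 8594 in WT, a ratio of 0.433 (0.417 to 0.450), or 2.31-fold lower. Rab27b, at 5018 against 10394 reads, had a ratio of 0.474 (0.459 to 0.491), 2.11-fold lower. The library labelled cKO was the lowest of the 4 for both genes. Against Young, the other 3-month wild-type library, both ratios were weaker and did not pass: 0.635 (0.610 to 0.661) for Rab6a and 0.635 (0.614 to 0.658) for Rab27b. Scaled by library totals, Rab6a alone passed against WT.

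With a bound of 1.5-fold in place of 2-fold, the 5 Rabs that were lower were Rab6a, Rab27b, Rab11a, Rab10 and Rab18, and none was higher, against a background of 6.28% lower and 7.24% higher. Rab11a had 6874 reads against 11768 in WT, a ratio of 0.574 (0.557 to 0.591). Rab10 had 4240 against 7229, a ratio of 0.576 (0.555 to 0.599), and Rab18, a Rab of the ER and of lipid droplets, 631 against 1048, a ratio of 0.592 (0.535 to 0.654). For these 3 genes the WT library stood above both other wild-type libraries. Rab11a had 8009 reads in Young and 6702 in Old, and its ratio of the library labelled cKO over Young was 0.941 (0.911 to 0.972). Rab10 had 5949 reads in Young and 5679 in Old, with a ratio over Young of 0.782 (0.751 to 0.813), and Rab18 had 847 and 707, with a ratio over Young of 0.817 (0.736 to 0.907).

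Several Rabs lay on the other side. Rab3d, a Rab of regulated secretion, had 649 reads in the library labelled cKO against 404 in WT and 392 in Young, with ratios of 1.58 (1.39 to 1.79) and 1.82 (1.60 to 2.06). Rab5b, an early endosomal Rab, had 1873 against 1291 and 1177, with ratios of 1.43 (1.33 to 1.53) and 1.75 (1.62 to 1.88). Rab13, which serves junctions and the cell surface, had 466 against 300 and 309, with ratios of 1.53 (1.32 to 1.77) and 1.65 (1.43 to 1.92). Against Young, Rab3d and Rab5b lay past the 1.5-fold bound on the higher side and Rab6a and Rab27b on the lower side, where the background was 6.78% higher and 3.70% lower, and none passed 2-fold (2.07% and 0.793%). Rab6b, at 2730 reads against 2021 in WT, had a ratio of 1.33 (1.25 to 1.41), opposite to its paralogue Rab6a.

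The role medians lay on both sides of 0. Over the 42 Rabs with at least 20 reads the library labelled cKO had a median log2 ratio over WT of -0.14, with 18 above and 24 below 0, against -0.01 over all genes. The medians were -0.28 for the 3 granule Rabs with that many reads, -0.39 for the 11 ER and Golgi Rabs, -0.22 for the 6 late endosomal and lysosomal Rabs, -0.09 for the 5 recycling Rabs, -0.05 for the 6 early endosomal Rabs and 0.06 for the 9 Rabs of exocytosis and the cell surface. The remaining pair was Rab28, with a ratio of 0.704 (0.625 to 0.793), and Rab44, with 21 reads against 0. The granule median is the value of Rab32, at 63 against 75 reads (0.581 to 1.17). That of the ER and Golgi Rabs is the value of Rab2b, at 62 against 80 reads (0.538 to 1.07). Of the 6 ER and Golgi Rabs with 100 reads, 3 ratios lay above 1 and 3 below, with a median ratio of 0.907. Of the 4 late endosomal Rabs with 100 reads, 3 had intervals below 1, with Rab9 lowest at 0.533, and that of Rab36 (0.878, 0.764 to 1.01) held 1. Of the 29 Rabs with 100 reads, the interval lay below 1 for 16 and above 1 for 9, where 33.3% and 32.7% of all genes did so. Over Young the medians were -0.52 for granule, -0.25 for ER and Golgi and -0.30 for late endosomal and lysosomal Rabs. They were -0.00 for recycling, 0.11 for early endosomal and -0.26 for exocytic Rabs. The signs of the early endosomal and exocytic medians thus depended on the control.

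Summed over all Rabs, the library labelled cKO had a ratio over WT of 0.736 (0.728 to 0.744), and over Young it was 0.922 (0.912 to 0.932). The summed granule Rabs gave 0.487 (0.471 to 0.503) and 0.640 (0.618 to 0.662), values set by Rab27b. Without Rab27b, Rab6a, Rab11a and Rab10, a set chosen after the values were seen, the sum was 0.956 (0.943 to 0.970) over WT and 1.05 (1.04 to 1.07) over Young. Beside these sums, summed platelet markers were at 53124.1 RPM in the library labelled cKO and 57926.5 in WT, and erythroid markers at 16207.6 and 8340.8 RPM. Of 14 platelet markers with 100 reads, 12 had intervals below 1 and 2 above, with a median log2 ratio of -0.15 beside the -0.14 of the Rabs. Against Young 7 were below and 6 above, with a median of -0.02. Their part in the Rab ratios was not tested.

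**Figure D2:**
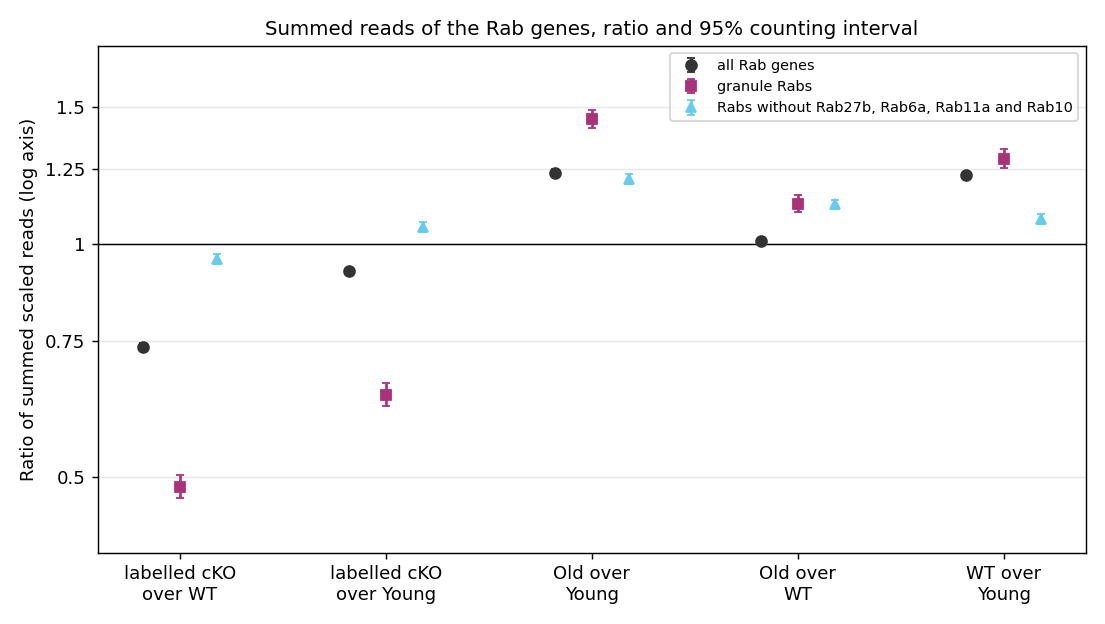
Ratio of summed Rab reads in each pair of libraries, for all Rabs, the granule Rabs and the Rabs without Rab27b, Rab6a, Rab11a and Rab10; points are ratios on a log axis and bars are 95% counting intervals. The sum for the library labelled cKO is 0.736 over WT and 0.922 over Young, and the sum for Old is 1.24 over Young and 1.01 over WT.

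In Old against Young, 1 Rab rose and none fell of the 30 that reached 100 reads, where the background over 6519 genes was 4.26% higher and 4.30% lower (8.56% in either direction). Rab3d reached 853 reads in Old and 392 in Young, for a ratio of 2.38 (2.11 to 2.69). It had 404 reads in WT, and over WT the ratio was 2.12 (1.88 to 2.39), which did not pass. Scaled by library totals, Rab3d did not pass against Young either. Rab3d was thus lowest in Young and WT, higher in the library labelled cKO and highest in Old.

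At a bound of 1.5-fold, 5 Rabs were higher in Old and none was lower, against a background of 10.4% higher and 12.9% lower. Beside Rab3d these were Rab9, Rab32, Rab31 and Rab6a. Rab9, which returns receptors from late endosomes to the Golgi, had 248 reads against 118 in Young, a ratio of 2.30 (1.84 to 2.89), with 131 in WT and 71 in the library labelled cKO. The granule gene Rab32, at 155 against 75 reads, had a ratio of 2.26 (1.71 to 3.02). Rab31, a Rab of the Golgi and endosomes, had 229 reads against 119, a ratio of 2.11 (1.68 to 2.65), and 119 in WT. Rab6a had 9755 against 6548, a ratio of 1.63 (1.58 to 1.68). For Rab9, Rab32 and Rab31, Old was the highest library and the 2 wild-type 3-month libraries lay close together. For Rab6a they did not: WT had 8594 reads, and its ratio over Young was 1.43 (1.39 to 1.48), so that Old over WT was 1.14 (1.11 to 1.17).

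Values above 1 were spread over most compartments. Of the 30 Rabs with 100 reads, the interval of Old over Young lay above 1 for 21 and below 1 for 4, where 35.6% and 40.5% of all genes did so. The median log2 ratio was 0.27 over the 47 Rabs with 20 reads, with 32 above and 15 below 0, against -0.06 over all genes. By role the medians were 0.55 for the 3 granule Rabs with that many reads, 0.45 for the 12 ER and Golgi Rabs, 0.30 for the 7 late endosomal Rabs, 0.27 for the 7 early endosomal Rabs, 0.18 for the 5 recycling Rabs and 0.04 for the 10 exocytic Rabs. Library totals, which shift the median of all genes by -0.16, gave 0.11 for all Rabs.

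The paralogues Rab27b and Rab27a lay on opposite sides against Young but not against WT. Rab27b stood at 11567 reads in Old and 8661 in Young, for a ratio of 1.46 (1.42 to 1.5). Rab27a was lower, at 167 against 242 reads and a ratio of 0.756 (0.617 to 0.924). Against the 103 reads of WT, Old had a Rab27a ratio of 1.63 (1.26 to 2.10), the reverse direction, where Rab27b was at 1.12 (1.09 to 1.15). Rab38 was at 7 against 9 reads, too few to show a difference. The Rabs that were lower in Old than in Young also included Rab8a, at 365 against 497 reads with a ratio of 0.804 (0.701 to 0.922). Over WT the interval of Rab8a (0.815 to 1.09) held 1. Rab22a was at 3994 against 4860 reads in Young with a ratio of 0.900 (0.863 to 0.939), and Rab11a at 6702 against 8009 with a ratio of 0.916 (0.887 to 0.947).

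Some ER, Golgi and early endosomal Rabs lay higher in Old and others lower or near 1. Rab1b had 2762 reads against 2079, a ratio of 1.46 (1.37 to 1.54). Rab2a, its neighbour in function between ER and Golgi, had 1001 against 757, a ratio of 1.45 (1.32 to 1.59). Rab5c had 5543 against 4221, a ratio of 1.44 (1.38 to 1.497). Against WT the same 3 genes had ratios of 1.85, 1.69 and 1.73. Rab18 lay on the other side, at 0.914 (0.826 to 1.01) over Young and 0.676 (0.614 to 0.744) over WT. Rab22a over WT was 0.678 (0.651 to 0.706). None passed 2-fold over WT, where the background was 4.54% higher and 4.22% lower. Over WT, 8 Rabs lay past the 1.5-fold bound on the higher side (Rab3d, Rab5c, Rab32, Rab37, Rab1b, Rab2a, Rab31 and Rab9) and Rab11a on the lower, where the background was 12.1% and 13.3%.

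Summed over all Rabs, Old over Young was 1.24 (1.22 to 1.25) and Old over WT was 1.01 (0.998 to 1.02). The granule Rabs gave 1.45 (1.41 to 1.49) and 1.13 (1.10 to 1.16). In the same libraries summed platelet markers were at 65820.6 RPM in Old, 53924.9 in Young and 57926.5 in WT. Of 14 platelet markers with 100 reads, 13 had intervals of Old over Young above 1 and 1 below, with a median log2 ratio of 0.59 beside the 0.27 of the Rabs. Over WT 12 lay above and 1 below, with a median of 0.52 beside the 0.15 of the Rabs. Neutrophil markers were at 838.8, 32.0 and 68.7 RPM, with Camp, Ltf, Ly6g and Mpo at 0 reads in Young and no listed marker at 0 in Old. Their part in the Rab ratios was not tested.

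**Figure D3:**
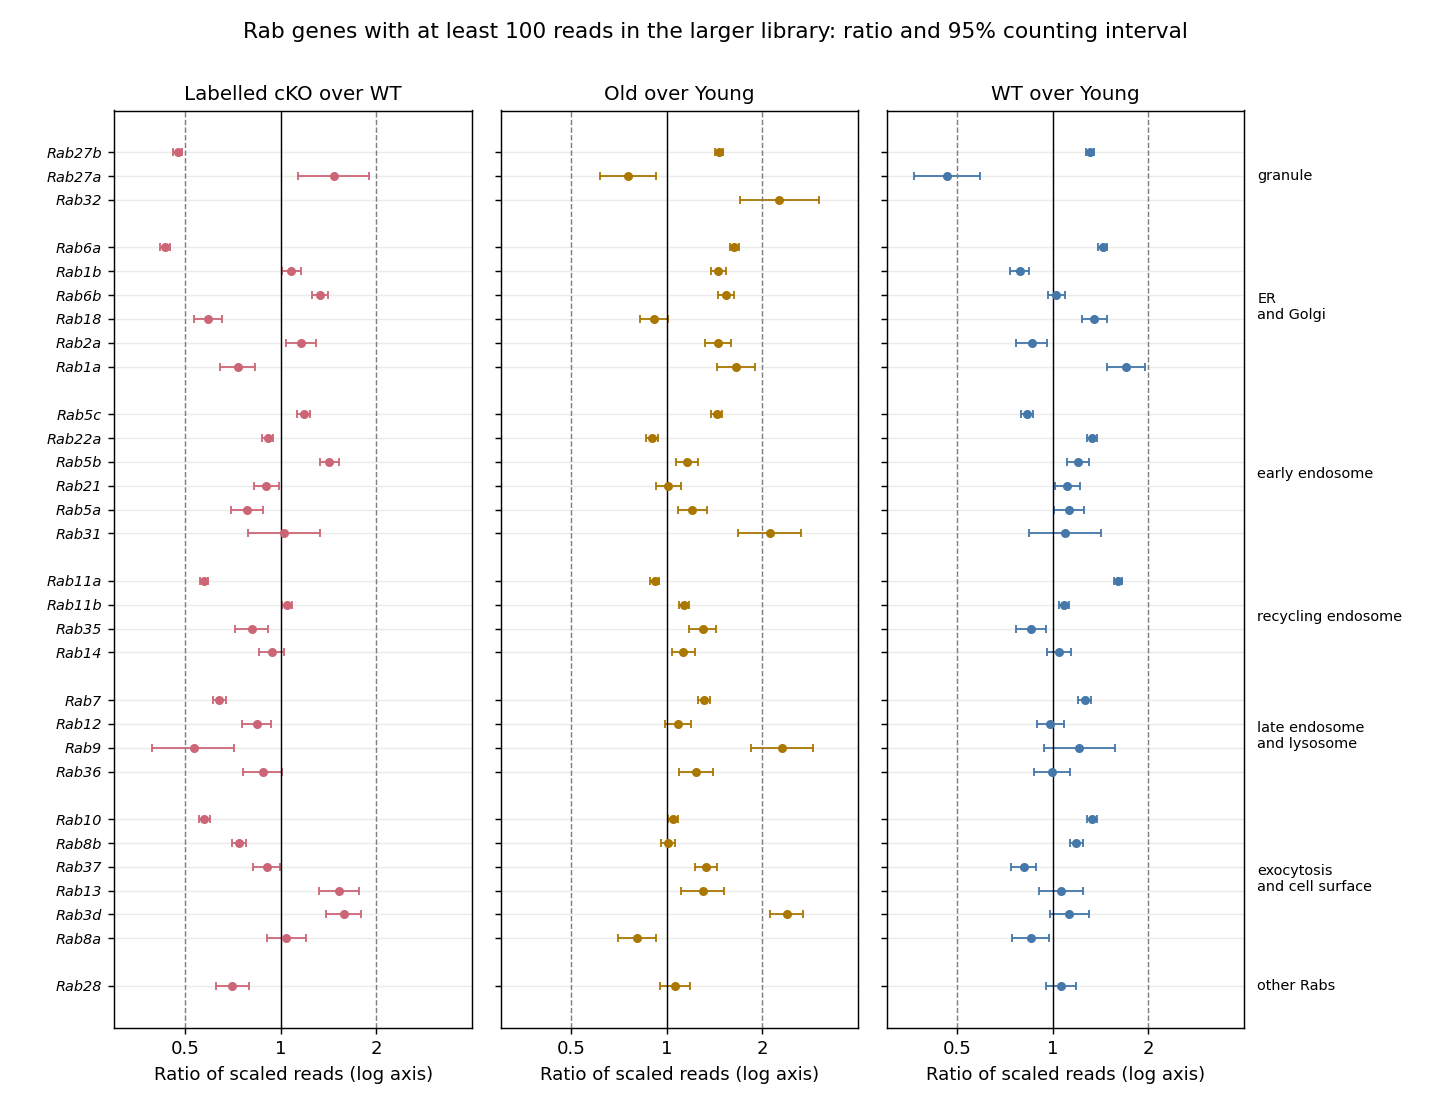
Ratios of the Rabs with at least 100 reads in the library labelled cKO over WT, Old over Young and WT over Young, on a log axis with 95% counting intervals; dashed lines mark 2-fold. Rab6a and Rab27b lie lowest for the library labelled cKO, and Rab3d lies highest for Old.

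Promoters are shown for Rabs that lay together on one side: Rab11a and Rab10, both lower in the library labelled cKO, and Rab3d and Rab9, both higher in Old. Each sequence is the 250 bases before the RefSeq start (GRCm38.p6), 5' to 3' on the gene's strand. Capitals mark matches on either strand to 5 motifs of factors known in blood cells or at promoters in general. These are AGATAA for the erythroid and megakaryocyte factors, TGTGGT for the RUNX family, GGAAGT for the ETS family, TGAGTCA for AP-1 and NF-E2, and the CCAAT box.
Rab11a, chr9:64737757-64738006, minus strand: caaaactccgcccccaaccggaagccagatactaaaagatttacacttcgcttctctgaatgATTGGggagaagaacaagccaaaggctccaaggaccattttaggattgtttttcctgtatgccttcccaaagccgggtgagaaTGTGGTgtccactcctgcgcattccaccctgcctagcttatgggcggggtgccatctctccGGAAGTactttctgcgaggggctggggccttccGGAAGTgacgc
Rab10, chr12:3309970-3310219, minus strand: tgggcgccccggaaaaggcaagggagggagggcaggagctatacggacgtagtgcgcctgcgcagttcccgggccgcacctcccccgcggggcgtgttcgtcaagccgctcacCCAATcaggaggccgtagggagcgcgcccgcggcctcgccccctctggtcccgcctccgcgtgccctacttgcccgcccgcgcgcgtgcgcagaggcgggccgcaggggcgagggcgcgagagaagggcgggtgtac
Rab3d, chr9:21918184-21918433, minus strand: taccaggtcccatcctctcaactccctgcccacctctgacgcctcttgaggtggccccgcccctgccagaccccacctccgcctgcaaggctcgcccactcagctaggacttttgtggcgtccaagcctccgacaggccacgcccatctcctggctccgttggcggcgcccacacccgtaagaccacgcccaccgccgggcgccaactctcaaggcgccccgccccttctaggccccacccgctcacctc
Rab9, chrX:166479868-166480117, minus strand: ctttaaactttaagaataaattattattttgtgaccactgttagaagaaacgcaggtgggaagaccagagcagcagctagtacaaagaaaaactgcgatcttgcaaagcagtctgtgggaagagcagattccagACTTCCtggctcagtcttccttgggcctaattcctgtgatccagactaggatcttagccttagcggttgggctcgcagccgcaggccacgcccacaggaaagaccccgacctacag
The Rab11a window holds the CCAAT box, the RUNX motif and the ETS motif. The Rab10 window holds the CCAAT box, the Rab9 window holds the ETS motif, and the Rab3d window holds none of the 5. These 4 windows were chosen after the values were seen and show no rule: the CCAAT box is also in promoters of Rab6a and Rab31, past 1.5-fold higher in Old, and of Rab5b and Rab13, whose ratios in the library labelled cKO were above 1.

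RefSeq promoters were found for 40 of the 51 Rabs, 49 promoters in all, and 32851 promoters of all genes served as background. CCAAT was in 44.9% of the Rab promoters and 33.8% of all promoters. GGAAGT was in 20.4% and 19.7%, TGTGGT in 14.3% and 14.0%, AGATAA in 4.08% and 9.99%, and TGAGTCA in 2.04% and 4.46%. No match says only that these letters are not in the window.

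WT and Young are both wild type at 3 months, so their difference gives a scale for how far pools of one kind can lie apart; each is also the control of 1 comparison above and is not independent of it. No Rab of 29 passed the 2-fold bound between them, where 1.00% of 6373 genes did (0.439% higher and 0.565% lower). At 1.5-fold Rab11a was higher in WT, with a ratio of 1.61 (1.56 to 1.65), and Rab27a lower, with a ratio of 0.465 (0.366 to 0.588), against a background of 2.59% and 2.73%. The summed Rab reads of WT over Young had a ratio of 1.23 (1.21 to 1.24) beside the 1.24 (1.22 to 1.25) of Old over Young. The median log2 ratio was 0.07 over 43 Rabs and -0.04 with library totals. Of the 29 Rabs, the interval of WT over Young lay above 1 for 13 and below 1 for 7. Over all genes it did so for 30.5% and 30%. Intervals of counting error alone thus often excluded 1 between pools of one kind.

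The libraries labelled cKO and Old can also be set against both 3-month wild-type libraries at once, asking for an interval on the same side of 1 in each. Both comparisons of a library then share that library. The library labelled cKO lay below both for 12 of 29 Rabs and above both for 5, where 17.9% and 20.3% of 6565 genes did. The 12 were Rab11a, Rab10, Rab37, Rab12, Rab27b, Rab28, Rab35, Rab6a, Rab8b, Rab18, Rab9 and Rab7, and the 5 were Rab5b, Rab3d, Rab13, Rab6b and Rab11b. Old lay above both for 15 of 30 Rabs and below both for Rab11a and Rab22a, where 27.2% and 30.0% of 6664 genes did. Both libraries are set against the same controls, so no overlap between their lists is read.

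Paralogues that share a compartment differed in how their reads were divided. Rab6a took 81.0% of the Rab6a and Rab6b reads in WT, 75.2% in Young, 76.4% in Old and 58.1% in the library labelled cKO, whose 95% Wilson interval of 56.9% to 59.3% lay below those of the other libraries. Rab11a took 64.1% of the Rab11a and Rab11b reads in WT, 54.6% in Young and 49.3% to 49.4% in both other libraries. WT stood apart here, since the Young share was nearer to the other 2 libraries than to WT. Rab5c took 62.1% (WT), 61.6% (labelled cKO), 69.8% (Young) and 73.9% (Old) of the Rab5 reads, so the 2 libraries of each deposited table lay closer to each other than to the other pair. Rab1b took 73.0%, 80.0%, 85.4% and 83.7% of the Rab1 reads in the same order. Its paralogue Rab1a had 554, 413, 356 and 537 reads, fewest in Young. Rab27b kept 97.0% to 99.0% of the Rab27 reads in every library, and Rab22a took 94.6% of the Rab22a and Rab31 reads in Old against 97.6% to 98.0% elsewhere. The counting of reads that fit both paralogues is not described in the sources used here.

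**Figure D4:**
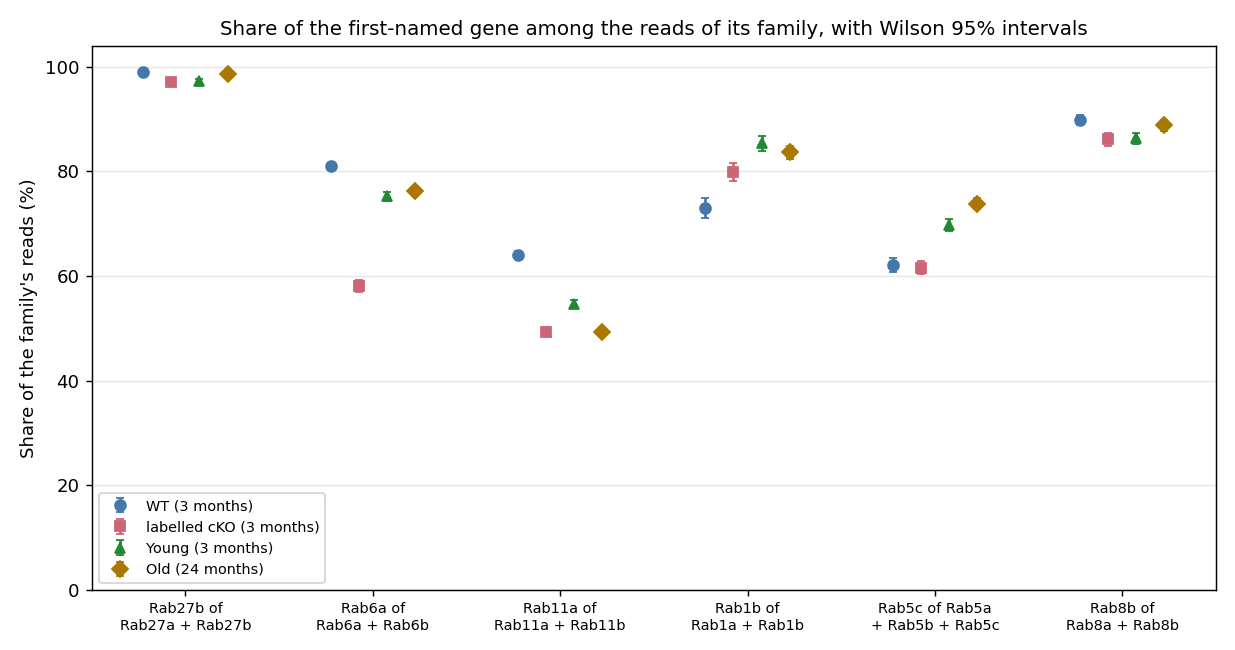
Share of each paralogue family's reads taken by the named member (percent) in the 4 libraries, with 95% Wilson intervals that cover counting error only. Rab6a is lowest in the library labelled cKO at 58.1%, and Rab11a is highest in WT at 64.1%.

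Some Rabs with few reads differed by large ratios that the minimum of 100 reads leaves uncalled. Rab44, a large Rab with added domains described in immune cells, had 0 reads in WT and 2 in Young, against 21 in the library labelled cKO and 79 in Old. With the 0 of WT set to the floor of 3 reads, Rab44 was 6.88-fold higher in the library labelled cKO than in WT. The lower bound of that interval was 5.12, and the Rab44 ratio in Old over Young was 43.3 (11.6 to 363). Rab4a, an early recycling Rab, had 28 reads in Old and 3 in Young, a ratio of 10.2 (3.16 to 52.5), but 14 in WT. Rab39 had 0 reads in Old and 23 in Young, 7.00-fold lower with the 0 set to the floor, and only 4 in WT. Its interval in Old over Young reached to 5.25-fold lower at the end nearest to 1. Old is also the library with the most neutrophil marker reads (838.8 RPM). These markers were at 68.7 RPM in WT, 32.0 RPM in Young and 41.3 RPM in the library labelled cKO, which had 21 Rab44 reads. Their part in the Rab44 count was not tested. In the authors' deposited table an adjusted p-value under 0.05 stood beside 1 of 49 Rabs for cKO and WT (Rab44, p = 0.00241) and beside 4 of 50 for Old and Young. The 4 adjusted p-values in the authors' deposited table were 8.33e-09 for Rab44, 0.000513 for Rab39, 0.00364 for Rab4a and 0.0325 for Rab3d. The sources used here do not name that test, which sets 2 libraries side by side and not the conditions.

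The proteins that load, anchor and read Rabs were followed through lists of prenylation factors, exchange factors, GTPase-activating proteins and effectors. In the library labelled cKO against WT, 2 of 69 such genes with 100 reads rose and none fell, a share of 2.90% beside the 2.52% higher and 1.71% lower over all genes. Dennd5a, an exchange factor of the DENN family, had 14071 reads against 5912, a ratio of 2.34 (2.27 to 2.41), with 6609 in Young and 8431 in Old. Mical3, a Rab8 effector, had 233 against 78, a ratio of 2.94 (2.26 to 3.84). Dennd4c, an exchange factor for Rab10, had 700 against 1369, a ratio of 0.502 (0.458 to 0.551), in the library in which Rab10 was at 4240 against 7229 reads. The median log2 ratios over WT were -0.28 for prenylation and recycling factors, 0.10 for exchange factors, 0.07 for GTPase-activating proteins and 0.19 for effectors. Over Young they were 0.07, 0.07, -0.10 and 0.04 in the same order. The signs for prenylation factors and GTPase-activating proteins thus depended on the control.

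In Old against Young, 1 of 74 of these genes rose and 2 fell, beside 4.26% higher and 4.30% lower over all genes. Dennd4c held 142 reads in Old and 1226 in Young, for a ratio of 0.127 (0.106 to 0.151), while Rab10 had 5679 against 5949. Dennd4b, of the same family, had 142 against 443, a ratio of 0.351 (0.289 to 0.425). Tbc1d2, a GTPase-activating protein for Rab7, had 182 against 67, a ratio of 2.97 (2.24 to 3.997), where Rab7 had 4345 against 3628 and a ratio of 1.31 (1.26 to 1.37). Between WT and Young none of 71 rose or fell, where 1.00% of all genes did.

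Some partners of the granule Rabs, picked for their known roles after the values were seen, are given here, and others on the lists are left out. None of those named passed the 2-fold bound in either comparison. Sytl4, the Rab27 effector granuphilin, had 12394 (WT), 9466 (labelled cKO), 12280 (Young) and 11493 (Old) reads, with ratios of 0.750 (0.731 to 0.771) for the library labelled cKO over WT and 1.03 (0.999 to 1.05) for Old over Young. Unc13d, the Rab27 effector that primes granules for fusion, had 4304, 4615, 5876 and 6861 reads, with ratios of 1.05 (1.01 to 1.10) and 1.28 (1.24 to 1.32). Hps1, part of the exchange factor for Rab32 and Rab38, had 160, 123, 149 and 215 reads, with ratios of 0.755 (0.592 to 0.961) and 1.58 (1.28 to 1.96). Hps4, also on the list of exchange factors, had 80, 68, 133 and 135 reads. Its ratio for Old over Young was 1.11 (0.868 to 1.42), with no difference beyond counting error. The difference between these ratios and those of Rab27b was not tested.

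HuR binds AU-rich stretches of 3' UTRs, so the pentamer ATTTA was counted on the sense strand in the longest annotated 3' UTR of each gene (GENCODE M21). At least 1 ATTTA was found in 45 of 51 Rabs, or 88.2%, against 69.0% of 13856 protein-coding genes. The Rabs' median 3' UTR is also longer, at 1949 bases against 1146, and the median count was 2 in both sets. Rab27b holds 14, Rab18 19, Rab8b 11, Rab6a 7, Rab10 6 and Rab11a 4, while Rab7 and Rab9, also lower in the library labelled cKO, hold 2 each. Among those higher there than in WT, Rab5b and Rab27a hold 5 each, Rab11b 4, Rab6b 2 and Rab3d 1. Both lists leave members out. On the lower side over WT these include Rab22a with 9, Rab21 with 6, Rab28 with 3, Rab12 with 2, and Rab35 and Rab37 with 1 each. On the higher side they include Rab13 with 0, and Rab5c, Rab2a and Rab1b with 1 each. Among Rabs with 100 reads, the library labelled cKO had a median log2 ratio over WT of -0.14 for the 19 with 0 to 4, -0.14 for the 7 with 5 to 9 and -0.76 for the 3 with 10 or more, which are Rab27b, Rab18 and Rab8b. Over Young the log2 ratios of these 3 genes were weaker, at -0.65 for Rab27b, -0.29 for Rab18 and -0.16 for Rab8b. Over all protein-coding genes the corresponding medians over WT were 0.04, -0.09 and -0.18. The same bins also differed between WT and Young, with Rab medians of 0.09, 0.26 and 0.39. The medians over all protein-coding genes were -0.06, 0.12 and 0.16. A count of ATTTA is a description and not a binding site.

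The genes sit on many chromosomes, and 19 of the 51 overlap exons of another annotated gene. Rab6a (chromosome 7, 100607410 to 100641268, plus strand) overlaps Mrpl48 on the opposite strand, which had 399 to 441 reads per library. Rab10 (chromosome 12, 3247428 to 3309969, minus strand) overlaps Rab10os, at 179 to 197 reads. Rab11b (chromosome 17, 33742484 to 33760530, minus strand) overlaps Gm17251, at 53 to 95 reads. These 3 partners had far fewer reads than the Rab in each library. For Rabs with few reads the partner was the larger: Prelid1 had 912 to 1097 reads against 10 to 14 for Rab24, Traf7 on the same strand 1672 to 2271 against 12 to 32 for Rab26, and Tox4 341 to 520 against 62 to 88 for Rab2b. Rab3d (chromosome 9, 21907491 to 21918192, minus strand) and Rab27b (chromosome 18, 69979131 to 70141605, minus strand) overlap no other annotated exon. The sources used here do not say whether strand entered the counting, so reads of overlapping genes on opposite strands may not be separable.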

How the data were processed

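Rab genes were taken from platelet RNA in 4 libraries, each a pool of 7 mice. The submitters' processing notes list, with no role or order, build mm10, featureCounts 1.5.0-p3, HISAT2 2.0.5, CASAVA and DESeq2 1.20.0. The authors deposited a scaled signal per gene, in which whole reads are multiplied by 1 factor per library and a constant is added. Undoing this gave whole reads for 100.0% of values within 0.02 read, and these recovered counts were used in place of the counts the design had foreseen. No count test was run, since 1 library per group leaves nothing to test across. Per the file headers, the deposited values include a log2 fold change per comparison and its p-value, raw and adjusted. A further 4 per-sample columns have names matching no sample and were not used. A table lists a gene only if its libraries hold 2 reads of it between them.

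TMM factors (edgeR 4.0.16, R 4.3.3) scaled the libraries of each pair. Ratios carry exact (Clopper-Pearson) 95% intervals for counting error alone. These treat each read as independent, but amplified reads are not independent molecules, so the intervals may be too narrow. Medians use log2 ratios with a pseudocount of 0.5 read over genes with at least 20 reads. The floor for 0 reads is 3 reads per library. Comparisons across the 2 tables use recovered reads of genes in both. The scripts were tested on simulated data. Named were the granule Rabs, Rabs past either bound, the 8 highest per length and up to 3 members per machinery list, with further Rabs and the partners of granule Rabs named after their values were seen. The members and lists were chosen with earlier results of these data known. 1 member of a machinery list is not reported here.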

Additional observations from a re-analysis of the deposited data

How the results depend on the processing

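Of 105 values recomputed under other settings, 82 stayed within a set margin and 23 moved beyond it. The margin was a factor of 1.5 for a count and the counting interval of the ratio for a sum. For a median it was the counting interval of the Rab nearest to it, which can be wide. The granule median of the library labelled cKO, -0.28 over WT and -0.52 over Young, stayed within it. So did the median over all Rabs for Old, at 0.27 over Young and 0.15 over WT. With library totals the WT over Young median changed sign, from 0.07 to -0.04 for all Rabs and from 0.07 to -0.05 for those other than granule Rabs. For the library labelled cKO over WT, no minimum count gave 1 Rab higher; the count of Rabs lower was 1 with library totals, 5 with the 1.5-fold bound, 3 with no minimum count and 0 against Young. Its summed Rab ratio was 0.761 with library totals, 0.750 with DESeq2 (1.42.0) size factors and 0.922 against Young. For Old over Young, the count of Rabs higher was 0 with library totals, 5 with the 1.5-fold bound, 3 with no minimum count and 0 against WT, and no minimum count gave 1 lower. With library totals the median log2 ratio was 0.11 for all Rabs, 0.39 for granule Rabs and 0.09 for the others. The granule median was 0.17 with no minimum of reads, which adds Rab38, and 0.70 against WT. The summed ratio was 1.11 with library totals, 1.26 with DESeq2 size factors and 1.01 against WT. For WT over Young, the 1.5-fold bound gave 1 higher and 1 lower, and library totals a sum of 1.13. The cause of these shifts was not tested, beyond fewer or more genes entering a count. No paired analysis was possible because each group has 1 library and the labels carry no replicate numbers, and no library could be left out of a group. Depth limits the Rabs under 100 reads.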
